A study of Homo sapiens with 2 samples.

Results

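The genes described here are 10 components of IL6-family cytokine signalling through STAT3, found by gene name among the 58735 genes of the deposited tables. They are the ligand LIF, the receptor chains IL6R, IL6ST, LIFR and OSMR, the kinases JAK1 and JAK2, the transcription factor STAT3 and the inhibitors SOCS3 and PIAS3. All 10 were found, and each passed the filter of at least 10 counts in at least 1 library. MAEL WT is a library of PLC8024 cells, a human liver cancer line listed under the cell type Alexander cells, with wild-type genotype and no treatment. MAEL KO is a library of the same line after MAEL was disrupted with an sgRNA and Cas9, and the study's methods describe seeding of sorted cells to raise single clones. Since each condition is 1 library, no difference below has a replicate check, and clone, culture and knockout cannot be told apart. In bulk RNA, fewer cells of a type and less RNA per cell cannot be told apart either.

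Most cytokines of the IL6 family signal through receptor complexes that share the chain IL6ST, also called gp130. IL6 first binds IL6R, whereas LIF joins LIFR to IL6ST and oncostatin M joins OSMR or LIFR to IL6ST. The bound receptors activate JAK kinases, which phosphorylate STAT3, and dimers of STAT3 then enter the nucleus and bind DNA. SOCS3 is induced by STAT3 and shuts the receptor complex off, and PIAS3 binds activated STAT3 and limits its action on DNA. In the liver the pathway drives the acute-phase response. RNA counts give the amount of each transcript and say nothing of phosphorylation.

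MAEL itself had 1 count in MAEL WT and 0 in MAEL KO, so the labels could not be checked by the targeted gene. The MAEL WT library held 19904136 counts in total and the MAEL KO library 20833332. The floor used here, 3 counts, equals 0.151 and 0.144 CPM, a count scaled to the library total. All 10 hepatocyte markers examined were above that floor in both libraries, with summed levels of 12983 and 25573 CPM, although ALB had 59 counts in MAEL WT against 8550 in MAEL KO and AFP 26 against 1351. Of 6 leukocyte markers, 4 in MAEL WT and 2 in MAEL KO exceeded 3 counts, PTPRC had 3 and 0 counts and CD3E 0 in both, and the sums were 5.07 and 1.49 CPM. The 6 fibroblast and stellate markers summed to 13.8 and 8.50 CPM, with COL1A1 at 92 and 11 counts, COL3A1 at 54 and 136 and COL1A2 at 1 count in both. The 4 epithelial markers summed to 1138 and 1702 CPM. KRT8 had 12248 and 23308 counts, KRT18 8981 and 10320 and CDH1 1400 and 1840, whereas EPCAM had 15 and 0. The 4 endothelial markers summed to 17.8 and 19.5 CPM, almost all of it PECAM1.

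STAT dimers bind DNA at palindromes of the form TTCNNNGAA, which reads the same on both strands, so the reference promoters of the pathway were searched for it. RefSeq promoters on GRCh38.p14, each from 250 bases before a transcription start to 50 after it, were found for 9 of the 10 genes, with 17 starts in all, and not for LIF. Among the 10 genes LIFR alone held the motif in these promoters, at 2 of its 3 listed starts, whereas 7.66% of all 35116 promoters held it. A longer form with 4 bases in place of 3 between the same arms was in none of the 17 and in 6.44% of all promoters, and 223 promoters held both forms. The windows before the 2 LIFR starts are shown because they carry the only matches among the 10 genes, and that of CISH, a SOCS-family inhibitor, because it held 4 matches, a number reached by 0.0199% of promoters, among them 1 of the STAT3 target BCL6, which is not printed. Each is on the minus strand and written 5′ to 3′ with the motif in capitals, and none overlaps an exon of its gene in GENCODE 29. The LIFR windows are at chr5:38557468-38557717 and chr5:38595406-38595655, both in introns of LIFR, and the first also covers the microRNA gene MIR3650, which had 0 counts in both libraries. The CISH stretch is chr3:50611875-50612024.
LIFR, first window: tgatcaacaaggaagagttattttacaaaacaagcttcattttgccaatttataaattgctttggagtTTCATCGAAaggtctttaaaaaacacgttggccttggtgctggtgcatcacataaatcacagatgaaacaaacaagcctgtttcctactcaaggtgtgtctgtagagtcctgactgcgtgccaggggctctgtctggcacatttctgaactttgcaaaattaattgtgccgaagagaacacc
LIFR, second window: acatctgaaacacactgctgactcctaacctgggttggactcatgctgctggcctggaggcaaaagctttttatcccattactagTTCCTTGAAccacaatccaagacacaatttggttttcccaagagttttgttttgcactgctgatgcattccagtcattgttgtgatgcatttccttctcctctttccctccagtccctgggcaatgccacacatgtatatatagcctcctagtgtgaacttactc
CISH: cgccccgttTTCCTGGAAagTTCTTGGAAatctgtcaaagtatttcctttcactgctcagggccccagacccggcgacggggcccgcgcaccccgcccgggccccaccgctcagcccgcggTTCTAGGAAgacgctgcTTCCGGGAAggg
Counted from the start site, the motif began at -182 in the first LIFR window and at -165 in the second, and at -241, -230, -129 and -112 in that of CISH. A match is a description of sequence and not a binding site. SOCS3 held no match at its 2 listed starts, which says only that these letters are not in those windows. The windows before these starts are at 78359668 to 78359917, inside the gene, and at 78360926 to 78361175, outside it. Neither covers the bases just before the annotated 5′ end of SOCS3 at 78360077, so that stretch was not searched.

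Levels of the 10 genes spanned a wide range, and the same 5 genes led in both libraries. In deposited FPKM, a level scaled by gene length and library size, JAK1 was highest, with 42.2 in MAEL WT and 29.3 in MAEL KO. JAK1 lay above 94.9% of tested genes in MAEL WT and above 90.1% in MAEL KO. It was followed by IL6R at 16.2 and 14.2 FPKM, STAT3 at 15.4 and 12.6, PIAS3 at 11.4 and 9.96 and IL6ST at 10.6 and 9.97. The remaining genes were at 3.35 FPKM or less. JAK2, at 0.726 and 0.376 FPKM, and LIFR, at 0.227 and 0.116, were the lowest in both libraries, and LIFR lay above only 7.90% and 7.12% of tested genes. Both chains of the IL6 receptor, IL6R and IL6ST, were thus well above LIFR in both libraries.

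**Figure D1:**
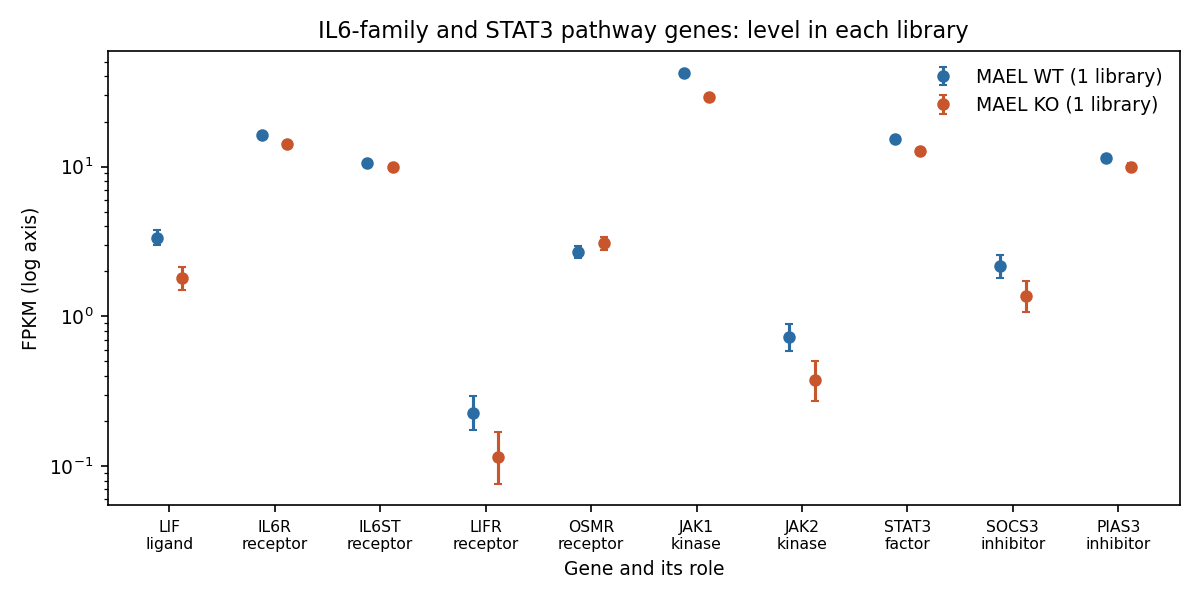
Deposited FPKM (log axis) of each gene in the MAEL WT library and the MAEL KO library, by role. Points are single libraries and bars are exact 95% Poisson intervals of the counts. JAK1 is highest at 42.2 and 29.3 FPKM and LIFR lowest at 0.227 and 0.116 FPKM.

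The order of levels changed for LIF and OSMR. LIF was above OSMR in MAEL WT, at 3.35 against 2.70 FPKM, and below it in MAEL KO, at 1.79 against 3.08. In MAEL WT their 95% Poisson intervals of 2.98 to 3.76 and 2.44 to 2.97 did not overlap, nor did those in MAEL KO, where the upper limit of LIF was 2.12 and the lower limit of OSMR 2.79. Some neighbours in the order were not separated by counting error, namely PIAS3 and IL6ST in both libraries, IL6R and STAT3 as well as OSMR and SOCS3 in MAEL WT, and LIF and SOCS3 in MAEL KO.

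Counts were normalized by TMM, and log2 fold changes are given as MAEL KO over MAEL WT with 1 added to both normalized counts. None of the 10 was above 2 or below -2, the fold threshold of the study's methods, whereas 7.8% of the 17887 tested genes were, 2.16% above 2 and 5.64% below -2. None was above 1 or below -1 either, whereas 26.7% of tested genes were, 10.2% above 1 and 16.5% below -1. With total counts in place of TMM, however, LIF (-1.17), LIFR (-1.22) and JAK2 (-1.20) were below -1, as were 22.5% of tested genes, and with TMM the intervals of LIF, LIFR, JAK2 and SOCS3 reached past -1. Their median log2 fold change was -0.40, beside -0.04 for all tested genes. In direction they were less even, since 9 of the 10 were lower in MAEL KO, against 52% of tested genes, and with total counts all 10 were, against 65.4%. For 8 of the 10 the 95% counting interval lay wholly below 0, against 34.7% of tested genes, and for none wholly above 0, against 34.8%. The intervals were computed with the exact Clopper-Pearson method and cover counting error only.

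**Figure D2:**
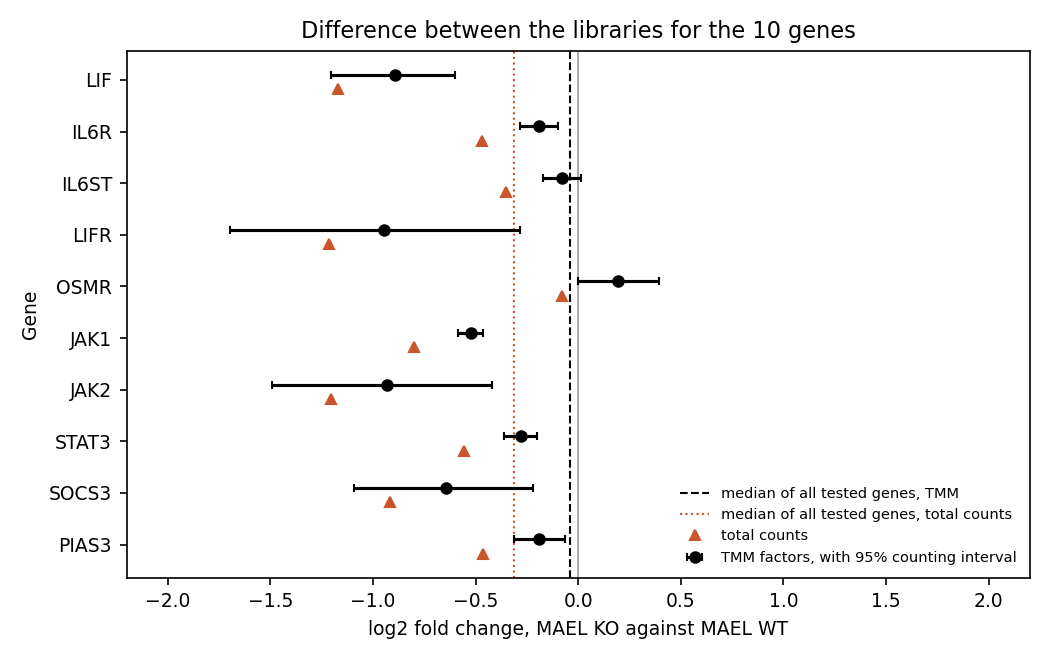
Log2 fold changes, MAEL KO over MAEL WT, of the 10 genes (x axis). Black points use TMM factors with 95% counting intervals, triangles use total counts, and vertical lines mark the medians of all tested genes, -0.04 with TMM and -0.31 with total counts. With TMM every gene lies between -0.95 and 0.20, and OSMR is the only one above 0.

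LIF, leukemia inhibitory factor, was the only ligand among the 10 genes. Its gene is on chromosome 22 (30240447 to 30246851 of GRCh38, minus strand). It had 291 counts in MAEL WT and 135 in MAEL KO, and was 1.86-fold lower in MAEL KO, which is -0.89 on the log2 scale with a 95% interval from -1.20 to -0.60. Of all tested genes, 18.7% had a lower log2 fold change.

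The receptor chains differed among themselves. IL6ST, the shared signal-transducing chain on chromosome 5 (55935095 to 55994993, minus strand), had 2145 counts in MAEL WT and 1757 in MAEL KO. Its log2 fold change of -0.08 had an interval that included 0 (-0.17 to 0.01), and 48.0% of tested genes were lower. Its pseudogene IL6STP1 had 0 counts in both libraries. IL6R, the IL6-binding chain on chromosome 1 (154405193 to 154469450, plus strand), had 2293 and 1736 counts and a log2 fold change of -0.19 (-0.28 to -0.10). The IL6 receptor chains were thus close to the middle of all tested genes, of which 42.5% were lower than IL6R. Genes with mean normalized counts of 300 or more, as both chains had, had a median of 0.14 and a first quartile of -0.26. Both chains lay between these values.

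LIFR and OSMR are neighbours on chromosome 5, LIFR from 38474963 to 38608354 on the minus strand and OSMR from 38845858 to 38945596 on the plus strand, and they differed in direction. LIFR had 59 counts in MAEL WT and 26 in MAEL KO, 1.93-fold lower, with a log2 fold change of -0.95 (-1.70 to -0.28). OSMR had 423 and 419 counts. This gave a log2 fold change of 0.20 with TMM, whose interval reached from just below 0 to 0.39, and of -0.08 with total counts. The 3' part of OSMR overlaps RICTOR on the other strand, with 1100 and 975 counts, and whether counting used strand is not stated.

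Ratios of receptor chains within a library do not depend on the scaling between libraries. The FPKM ratio of LIFR to IL6ST was 0.0215 in MAEL WT and 0.0116 in MAEL KO, which is 0.538 times the first (exact conditional 95% interval 0.324 to 0.871). The ratio of OSMR to IL6ST went the other way, from 0.255 to 0.309, a factor of 1.21 (1.04 to 1.41). The ratio of IL6R to IL6ST, 1.54 and 1.42, had a factor of 0.924 with an interval that included 1 (0.845 to 1.01). By counting error alone, LIFR and OSMR thus separated from the shared chain in opposite directions and IL6R did not separate from it.

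Both kinases were lower in MAEL KO, and JAK1, the main kinase on gp130 receptors, was the component with the most counts and the narrowest interval. JAK1 (chromosome 1, 64833229 to 64966504, minus strand) had 5826 and 3504 counts, 1.44-fold lower, with a log2 fold change of -0.52 (-0.58 to -0.46). Of tested genes, 28.7% were lower. With total counts JAK1 was at -0.80, outside its counting interval, which does not cover the choice of scaling. JAK2 (chromosome 9, 4984390 to 5128183, plus strand) also serves hormone and growth factor receptors such as those for growth hormone and erythropoietin. It had 98 and 44 counts, 1.91-fold lower, with a log2 fold change of -0.93 (-1.49 to -0.42). INSL6, which overlaps JAK2 on the other strand, had 96 and 83 counts.

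STAT3, on chromosome 17 from 42313324 to 42388568 on the minus strand, had 2967 counts in MAEL WT and 2113 in MAEL KO. It was 1.21-fold lower, with a log2 fold change of -0.28 (-0.36 to -0.20), and 38.3% of tested genes were lower. Of the inhibitors, SOCS3 (chromosome 17, 78356778 to 78360077, minus strand) had 129 and 71 counts, 1.56-fold lower, with a log2 fold change of -0.64 (-1.09 to -0.22). PIAS3 (chromosome 1, 145848522 to 145859836, minus strand) had 1196 and 907 counts and a log2 fold change of -0.19 (-0.31 to -0.06). PIAS3 overlaps NUDT17 on the other strand, which had 143 and 90 counts. The FPKM ratio of SOCS3, the induced feedback inhibitor, to STAT3 was 0.140 in MAEL WT and 0.108 in MAEL KO. The factor between them was 0.773, with an interval that included 1 (0.567 to 1.05), so a difference of SOCS3 from STAT3 was not detectable at this depth.

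Levels differed between the components with the larger and the smaller log2 fold changes. The 4 components with the fewest counts, LIFR, JAK2, SOCS3 and LIF, had log2 fold changes between -0.95 and -0.64 and a median of -0.91. The 4669 tested genes of that range, with mean normalized counts of 30 to 300, had a median of -0.26, and 42.3% of them had an interval wholly below 0. The other 6 components had a median of -0.19, beside 0.14 for the 9180 genes with mean normalized counts of 300 or more, of which 32.3% had an interval wholly below 0. In that upper range 4 of the 6 components had such an interval, and JAK1, with the most counts, had the lowest log2 fold change of the 6. The part of expression level in these differences was not tested.

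**Figure D3:**
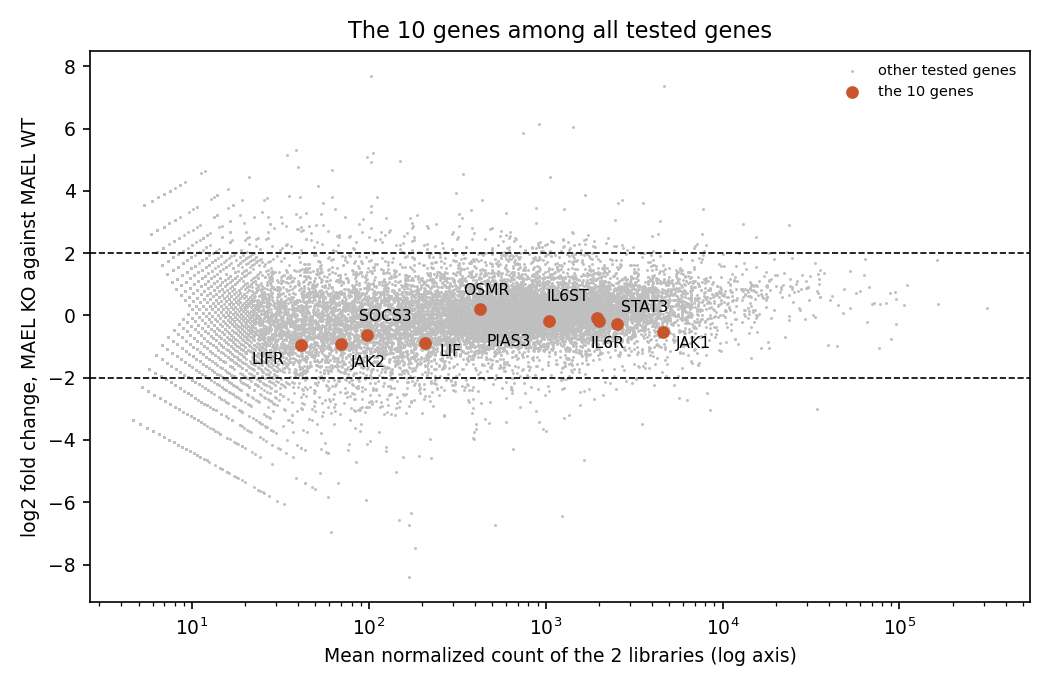
Log2 fold changes, MAEL KO over MAEL WT (y axis), by mean normalized count of the 2 libraries (log x axis) for 17887 tested genes, with the 10 components in colour. Dashed lines mark log2 fold changes of 2 and -2. None of the 10 passes them, and the 4 components with the fewest counts lie lowest.

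Among 43 further genes of the pathway, 38 were tested, with a median log2 fold change of -0.09, and 2 of them passed -2 and none passed 2, beside 5.64% and 2.16% of all tested genes. At the lower threshold 7 were below -1 and 3 above 1, beside 16.5% and 10.2%, so these counts were near those of all genes. The ligands IL6, oncostatin M (OSM) and IL31 had 0 counts in both libraries, under the floor of 3 counts. That floor equals 0.151 CPM in MAEL WT and 0.144 CPM in MAEL KO, and a level this low is not excluded. Of 10 other ligand genes of the family, 6 were tested. IL11, which signals through IL11RA and IL6ST, had 321 counts in MAEL WT and 36 in MAEL KO, 7.54-fold lower, which is -2.91 on the log2 scale (interval -3.49 to -2.45). EBI3, a subunit of IL27, had 113 and 31 counts (-1.63). CLCF1 had 296 counts in both libraries (0.21 with TMM, -0.07 with total counts), and CNTF had 11 and 28 counts (1.47). Among the 10 components and these ligands, IL11 thus had the largest difference, whereas its receptor chain IL11RA had 592 and 574 counts (0.17, with an interval that included 0).

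The other 3 receptor genes gave no shared direction. IL31RA, the IL31 receptor chain, had 31 and 5 counts, a log2 fold change of -2.23 with a wide interval (-4.14 to -1.05), and it was at -1.71 with 5 in place of 1 added to the counts. CNTFR had 12 and 23 counts (1.08), and IL27RA, a chain of the IL27 receptor, had 767 and 643 counts (-0.04). Of the sheddases that release soluble IL6R, ADAM10 had 2761 and 3430 counts (0.52) and ADAM17 had 1424 and 1179 (-0.06).

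Of 5 other STAT genes described here, 4 were tested. All 4 were lower in MAEL KO, beside 52% of all tested genes, with a median log2 fold change of -0.51 and none past -2. STAT2, a factor of type I interferon signalling, had 1854 and 548 counts, 2.92-fold lower (-1.55, interval -1.69 to -1.41). STAT4, a factor of IL12 signalling, had 71 and 37 counts (-0.72). STAT5B had 1378 and 958 counts (-0.31) and STAT6 670 and 475 (-0.29), which is near the value of STAT3. STAT5A, whose sequence is close to that of STAT5B, had 3 and 1 counts and was not tested. Of the other JAK kinases, JAK3 had 353 and 111 counts (-1.45) and TYK2 had 2047 and 1656 (-0.10).

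Of the other 10 SOCS and PIAS inhibitors 5 were lower and 5 higher, with a median of -0.20 and none past 2 in either direction, whereas with total counts 7 were lower and 3 higher, with a median of -0.48. Among all tested genes, 52% were lower with TMM and 65.4% with total counts. SOCS2, which acts on growth hormone receptor signalling, had 915 and 249 counts, 3.17-fold lower (-1.66). CISH, whose promoter stretch with 4 motifs is shown above, had 19 and 6 counts (-1.32, interval -3.07 to -0.07). PIAS1 had 655 and 838 counts (0.57) and PIAS2 had 384 and 490 (0.56). The 10 phosphatases and adaptors had a median of 0.15 with 4 lower and 6 higher, and with total counts a median of -0.13 with 6 lower and 4 higher. PTPN2, a phosphatase that acts on JAK1, JAK3 and STAT proteins, had 699 and 1403 counts, 2.32-fold higher in MAEL KO (1.21, interval 1.08 to 1.35). GAB1, an adaptor, had 140 and 181 counts (0.58), whereas the related GAB2 had 861 and 411 (-0.86) and the ubiquitin ligase CBL had 2255 and 1120 (-0.80).

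Genes known as transcriptional targets of STAT3 lay on both sides of 0. Of 19 listed and tested, 10 were lower and 9 higher, with a median of -0.22 and 1 past each threshold of 2 and -2, which 2.16% and 5.64% of all tested genes passed. With total counts 13 were lower and 6 higher, with a median of -0.50. Among all tested genes, 52% were lower with TMM and 65.4% with total counts. CEBPB, a transcription factor of the acute-phase response, had 9375 counts in MAEL WT and 1723 in MAEL KO, 4.70-fold lower (-2.23, interval -2.31 to -2.16). TIMP1, an inhibitor of matrix metalloproteinases, had 140 and 33 counts (-1.85). BIRC5, which encodes survivin and acts in cell division, had 669 and 2341 counts, 4.04-fold higher (2.02), and it was at 1.74 with total counts. LRG1, a secreted glycoprotein, had 997 and 2167 counts (1.33).

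The tested acute-phase genes of the IL6 type were mostly higher in MAEL KO. Of 18 listed, 12 were tested, 11 of them were higher and 1 was lower, with a median of 0.61, and with total counts 10 were higher and 2 lower, with a median of 0.34. Among all tested genes, 52% were lower with TMM and 65.4% with total counts. Most of the 12 had mean normalized counts of 300 or more. In that range 40.7% of genes were lower and the median was 0.14 with TMM. Past a log2 fold change of 2 were 2 genes, against 2.16% of all tested genes above 2. ORM2, an orosomucoid, had 73 and 564 counts, 8.82-fold higher (3.14, interval 2.81 to 3.53), though its reads may be shared with the near-identical ORM1, which had 627 and 2087. HP, haptoglobin, had 1 and 38 counts, a log2 fold change of 4.44 with a wide counting interval (2.89 to 10.8). LBP was the lower gene, with 277 and 165 counts (-0.53), and ITIH4 had 11 and 10 (0.07). CRP and SAA2 had 0 counts in both libraries. SAA1 had 2 counts in MAEL WT and 5 in MAEL KO, SERPINA3 1 and 1, HAMP 0 and 5 and C4BPA 1 and 6. All of these were too low to be tested. The summed hepatocyte markers moved in the same direction, from 12983 to 25573 CPM, and their part in the result was not tested. Of these markers SERPINA1, at 3927 and 11179 CPM, and FGB, at 1548 and 3409 CPM, are also acute-phase genes. A large part of the summed rise thus belongs to genes counted in both lists.

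**Figure D4:**
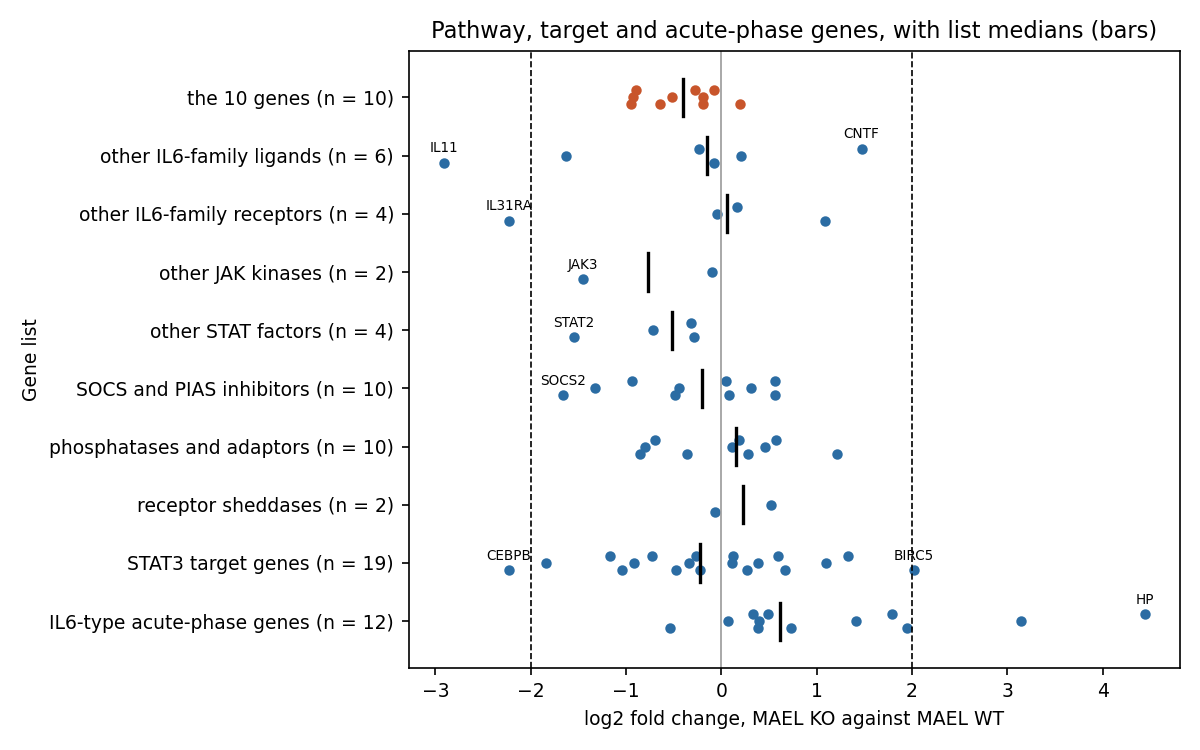
Log2 fold changes, MAEL KO over MAEL WT, of each tested gene of the 10 lists, with 1 point per gene and a bar at each median; dashed lines mark 2 and -2. With TMM the 10 components centre on -0.40 and stay within 1 of 0, the STAT3 target genes centre on -0.22 with 1 gene past each line, and the acute-phase genes centre on 0.61. The point of HP, with 1 count in MAEL WT, depends on the 1 added before the log.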

How the data were processed

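RNA-seq data of 1 MAEL WT and 1 MAEL KO library, read on a HiSeq instrument, were used. The authors deposited whole-number read counts per gene without normalization, and FPKM values, which they scaled by gene length and library size. The submitters' processing notes list HISAT2 2.0.5 and featureCounts 1.5.0-p3 and name hg19, but 58724 of the 58735 genes in the tables have the start, end and strand of GENCODE 29 on GRCh38. All sample columns were used.

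Counts were normalized with TMM factors (edgeR 4.0.16, R 4.3.3), 1.10 for MAEL WT and 0.909 for MAEL KO. The 17887 genes with at least 10 counts in 1 library were given log2 fold changes with 1 added. Exact intervals (95%) reflect the counting of reads alone, and without molecular identifiers several reads can stem from 1 molecule. No p-value was computed, as 1 library per condition leaves no replicate error. Alternatives were DESeq2 1.42.0 size factors, upper quartile factors, total counts, FPKM ratios, 0.1 or 5 added, other filters, protein-coding genes alone and a threshold of 1.

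The components and lists were chosen with earlier results of these data known. In the lists, 1 gene is not reported here. In each list the 2 highest and 2 lowest tested genes were named, or all of 4 or fewer. The classes of expression level were chosen after the values were seen. The steps were tested on simulated data and ran with SciPy 1.17.1, NumPy 2.4.6, pandas 2.3.3 and matplotlib 3.10.9 under Python 3.11.15.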

Additional observations from a re-analysis of the deposited data

How the results depend on the processing

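The count of 0 components past 2 held under every scaling, filter and added count run, and with TMM it was also 0 at a threshold of 1, which 26.7% of all tested genes passed. With total counts and a threshold of 1 together, chosen after seeing the data, it was 3 (LIF, LIFR and JAK2), beside 29% of all tested genes. Beyond 2 were 7.8% of all tested genes, 4.27% when 5 was added and 3.89% of genes with at least 100 counts, a filter that LIFR and JAK2 did not pass. The share was 6.88% of protein-coding genes. It was higher with total counts (8.82%), FPKM ratios (8.36%), 0.1 added (9.02%) and no count filter (9.32%). Scaling by total counts shifted the median of the 10 components from -0.40 to -0.68 and that of all genes from -0.04 to -0.31. With total counts PTPN6 (-0.090), PTPN11 (-0.17), BCL2L1 (-0.012), HIF1A (-0.16) and SBNO2 (-0.16) were lower in MAEL KO, whereas with TMM their intervals lay above 0. A further 57 of 474 alternative values for 79 listed genes left the counting interval, 51 of them with total counts and 6 with upper quartile factors. With total counts these included IL6R, IL6ST, OSMR, JAK1, STAT3 and PIAS3 among the 10 components. Also among them, OSMR (-0.08), CLCF1 (-0.07), IL11RA (-0.11), SOCS5 (-0.19) and PIAS4 (-0.23) went from above to below 0. With TMM the intervals of these genes included 0. At the filter of 100 counts the median of the 8 components that passed was -0.24, in place of -0.40 for all 10. That of all genes was 0.07 in place of -0.04. At the same filter the median of the SOCS and PIAS inhibitors was 0.06 in place of -0.20 and that of the other ligands -1.63 in place of -0.15. The call of BIRC5 past 2 was lost with total counts and with upper quartile factors, that of IL31RA with 5 added, and TIMP1 passed -2 (-2.12) with total counts. The ratios between components were the same from counts divided by gene length. This had to be so, since FPKM within a library is that quotient times a constant, and it is no check of the ratios. With 1 library per condition no library could be left out. No paired analysis was possible because each group has 1 library. Components under 100 counts have intervals too wide to tell a small difference.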

Other observations

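The chromosomal neighbours of the components, the 3 nearest tested protein-coding genes on each side, did not share one direction with them. None of the 6 neighbours of LIFR, which ranged from -0.26 to 1.13, was as low as LIFR itself at -0.95. Next to IL6R and PIAS3 on chromosome 1, which were both at -0.19, 5 of 6 neighbours each were lower than the component. These included SHE, an SH2 domain protein gene with 180 counts in MAEL WT and 13 in MAEL KO (-3.49), and ITGA10, an integrin chain with 230 and 14 counts (-3.74). SOCS3 at -0.64 lay near BIRC5 (2.02), and JAK1 at -0.52 near AK4, a mitochondrial adenylate kinase with 1164 and 4355 counts (2.11). The neighbours were taken by position, SHE, ITGA10 and AK4 are named after their values were seen, and no difference was tested.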
